A study of Mus musculus with 24 samples.

Results

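The genes described here build or run the motile cilium. They were taken from the deposited table by name: every row beginning Cfap, Dnah, Rsph or Tekt, with Ak7, Mns1, Ccdc114, Foxj1 and Map3k19 added. Of 66 such rows, 62 were kept because 2 or more of the 24 libraries had a normalized count of 10 or higher, out of 18364 named genes that passed the same rule. The 62 comprised 33 Cfap, 15 Dnah, 5 Rsph and 4 Tekt genes and the 5 added names. The rule used only names and this low value cut, but it was set with earlier results of these data known. Just inside the rule were Cfap99, at 10 or more in 3 libraries, and Cfap221, at 10 or more in 6. Just outside were Rsph14 and Rsph6a, each at 10 or more in 1 library, while Cfap97d1 and Tekt3 reached 10 in 0 libraries.

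RNA came from the hippocampus of mouse pups subjected to hypoxia-ischemia (HI) at postnatal day 10, a model of perinatal brain injury. The pups were labelled Neil1-KO, Neil2-KO or wild type (WT), Neil1 and Neil2 being DNA glycosylases of base excision repair. All groups, WT included, had undergone HI, and each side was taken at 3 h or at 6 h, with the ipsilateral side the injured one and the contralateral side of the operated animals its counterpart. Each of the 12 combinations had 2 libraries, and no uninjured animals were among them. The 8 libraries titled Neil2-KO carried a Neil1-KO genotype tag and were grouped by title.

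A motile cilium holds a ring of doublet microtubules around a central pair. Outer and inner arm dyneins on the doublets generate the beat, radial spokes and central pair proteins regulate it, and tektins and other proteins line the tubules. Foxj1 is the transcription factor that switches on motile cilium genes. In the brain, motile cilia belong mainly to ependymal cells, which line the ventricles beside the hippocampus, and to the epithelium of the choroid plexus. Some Cfap and Rsph genes are also expressed broadly outside ciliated cells. In whole tissue, fewer cells of a type and less RNA per cell cannot be told apart.

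Libraries held 17771293 to 29252067 reads. All 8 hippocampal neuron markers examined passed the low value rule, which asks for only 2 libraries. Against each marker's own median over the 24 libraries (log2), the median marker was at -1.23 in labelled Neil1-KO ipsilateral 6 h replicate 2. It was at -0.96 in WT ipsilateral 6 h replicate 2. Neil2 was at 0 to 3.02 normalized counts in the 8 Neil2-KO libraries and at 15.2 to 27.8 in the 8 WT libraries. Neil1 was at 91.6 to 155 in the libraries labelled Neil1-KO and at 56.8 to 123 in WT libraries, so the targeted transcript was not lower and does not check that label. Xist, the RNA of the inactive X chromosome, was high on both sides in 3 animals, which were both labelled Neil1-KO replicates numbered 2 and Neil2-KO 6 h replicate 2. Ttr, the leading transcript of choroid plexus epithelium, ran between 74.0 and 35650 normalized counts and exceeded 10000 in 8 libraries spread over all 3 genotypes, so choroid plexus RNA was uneven between libraries. The libraries of labelled Neil1-KO ipsilateral 6 h replicate 2 and WT ipsilateral 6 h replicate 2 stood apart for the cilium genes, as described next.

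Many cilium genes varied widely between libraries. Of the 62 members, 10 differed by less than 2-fold between their lowest and highest library, 28 by 2- to 5-fold and 23 by 5-fold or more, and 1, Cfap99, had a value of 0 in a library. The lowest value fell in WT ipsilateral 6 h replicate 2 for 18 members, more than in any other library. The highest value fell in labelled Neil1-KO ipsilateral 6 h replicate 2 for 31 members. For 13 members both held, among them Cfap65, Dnah6, Dnah3, Ak7 and Cfap44. Expressed as the deviation from each gene's own median over the 24 libraries (log2), the median member was at 0.71 in the labelled Neil1-KO library and at -0.48 in the WT library. The other 22 libraries lay between -0.30 and 0.38.

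**Figure D1:**
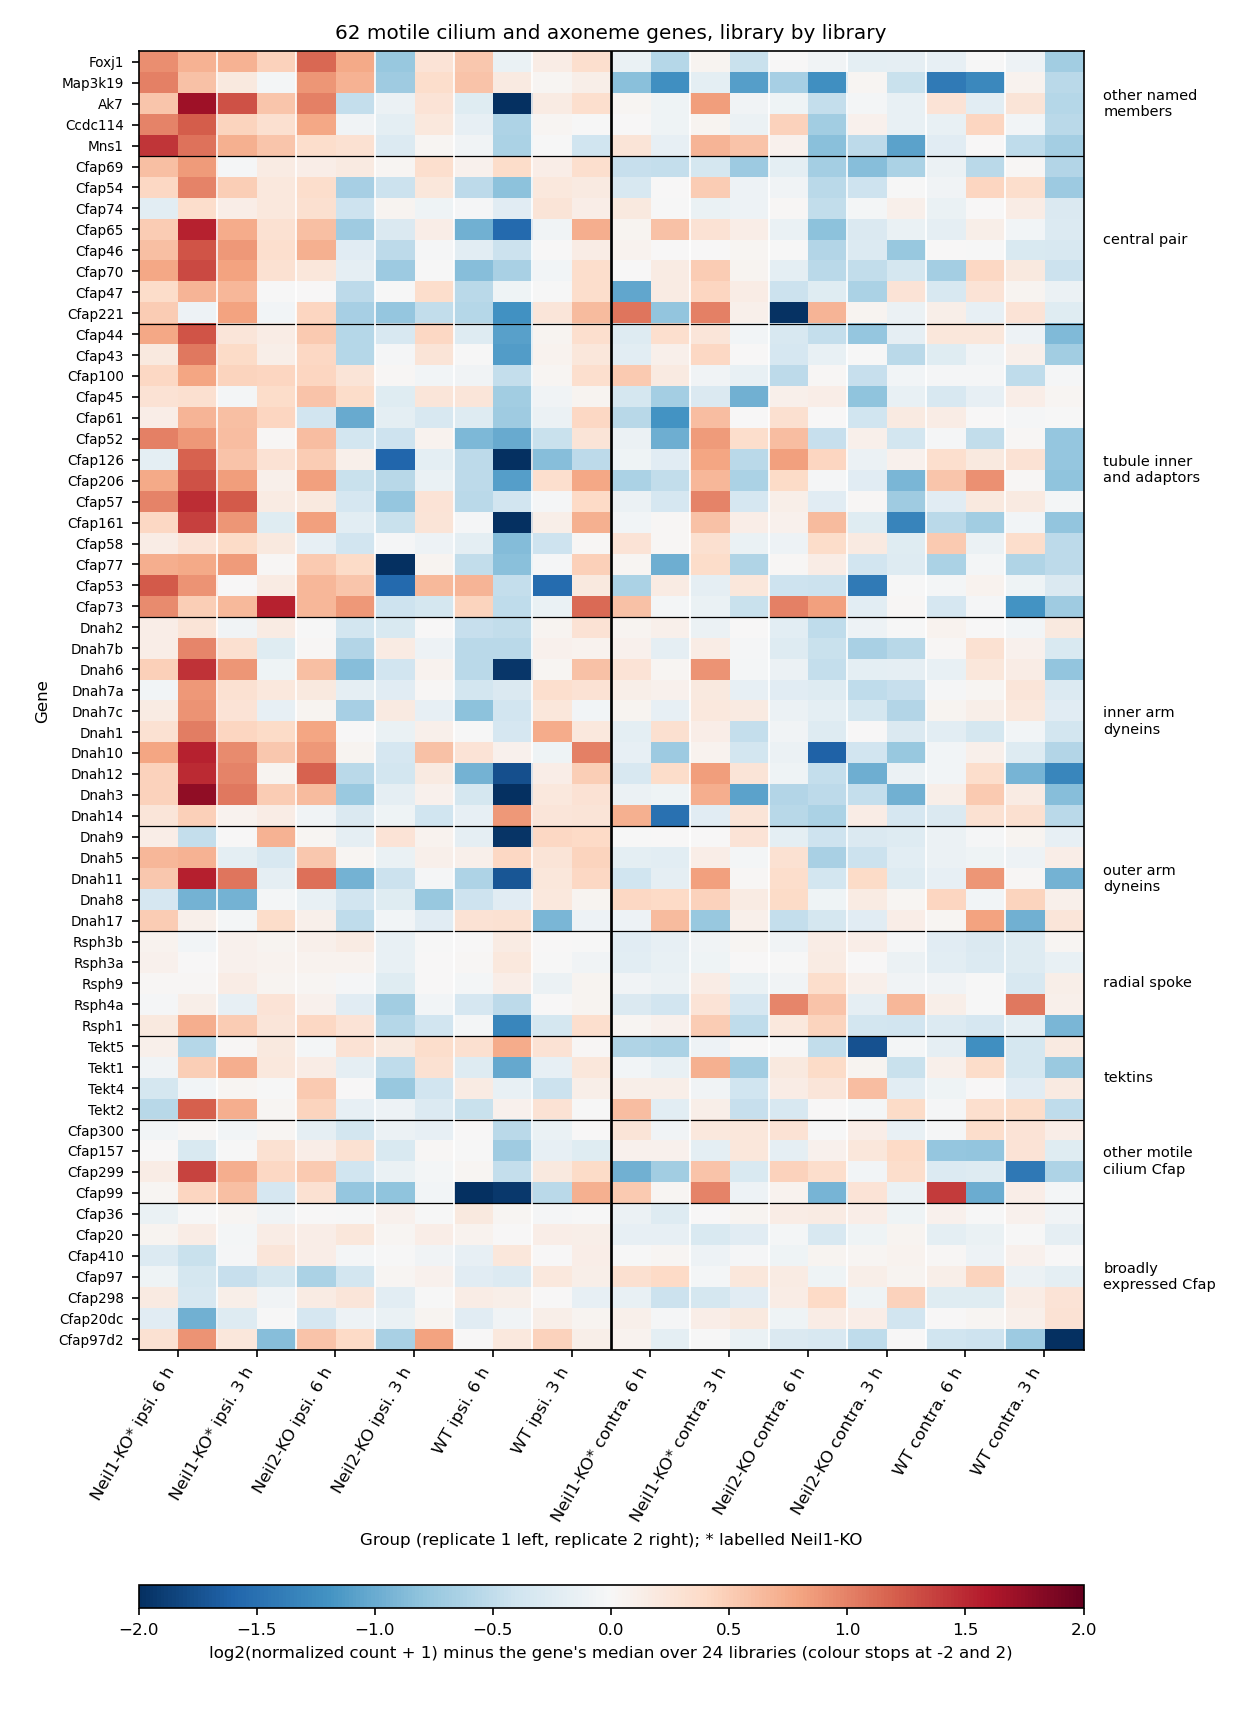
The log2(normalized count + 1) of each of the 62 genes (rows, grouped by role) minus its median over the 24 libraries (columns, ipsilateral left of contralateral, replicates side by side); red is above and blue below the gene's own median. The column of labelled Neil1-KO ipsilateral 6 h replicate 2 is red for most inner arm dynein, central pair and tubule genes, with a median member at 0.71, and that of WT ipsilateral 6 h replicate 2 is blue, with a median member at -0.48.

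The median deviation in these libraries differed by role, though members of a role did not all follow its median. The 14 tubule inner and adaptor proteins, which sit inside the doublets or tether dyneins to them, had a median deviation of 0.89 in labelled Neil1-KO ipsilateral 6 h replicate 2 and of -0.85 in WT ipsilateral 6 h replicate 2. The 10 inner arm dynein heavy chains had 1.00 and -0.44 in the same libraries, the 8 central pair proteins 0.93 and -0.54, and the 5 added names 1.08 and -0.61. The 5 outer arm dynein heavy chains were at 0.10 and -0.23 and the 4 tektins at 0.21 and -0.03. The 5 radial spoke genes had 0.02 and 0.13, and the 7 broadly expressed Cfap genes -0.32 and 0.05. Rsph3a and Rsph3b, spoke stalk proteins, and Rsph9, a spoke head protein, moved little. Rsph1, also a radial spoke gene, ranged from 25.5 in WT ipsilateral 6 h replicate 2 to 107 in labelled Neil1-KO ipsilateral 6 h replicate 2. Dnah11, an outer arm dynein heavy chain, ranged from 9.87 to 103 between the same libraries. Rsph3b ranged from 532 to 730 normalized counts over all libraries, Rsph9 from 268 to 426 and Cfap36, a broadly expressed member, from 1209 to 1650. Ak7, an adenylate kinase of the axoneme, ranged from 9.05 in WT ipsilateral 6 h replicate 2 to 249 in labelled Neil1-KO ipsilateral 6 h replicate 2. Cfap161, a tubule inner protein, ranged from 1.65 to 60.2 between the same libraries, and Dnah3, an inner arm dynein heavy chain, from 1.65 to 69.4.

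Markers of ependyma from outside the members moved with the members. Some, Sntn among them, may themselves be cilium genes. Of 7 listed, 6 passed the low value rule. Tmem212 was at 118 in labelled Neil1-KO ipsilateral 6 h replicate 2 and at 4.11 in WT ipsilateral 6 h replicate 2, against 19.7 to 119 in the other 22 libraries. Rarres2 was at 149 and 27.2 in those libraries, against 41.7 to 129 in the others, and Sntn was at 15.7 and 0. Tppp3, a marker shared with oligodendrocytes, did not follow, at 1006 and 1093. The summed level of the 12 choroid plexus markers, Ttr included, was 416 to 28600 in ipsilateral libraries and 485 to 37950 in contralateral ones. Ttr was at 19800 in labelled Neil1-KO ipsilateral 6 h replicate 2 and at 259 in WT ipsilateral 6 h replicate 2. It was at 11310 in labelled Neil1-KO ipsilateral 6 h replicate 1, where the median member deviated by 0.27. In WT contralateral 3 h replicate 1 it was at 35650, and the median member deviated by 0.03. Tcf7l2, a factor abundant in thalamus that was looked at after the data were seen, was at 582 and 940 in both WT ipsilateral 6 h libraries and at 84.3 to 272 in the other 22. The part of these markers in the results below was not tested beyond the fits with a marker term given beside them. Whether the term for ependymal markers reads cell content separately from the cilium genes was not tested.

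**Figure D2:**
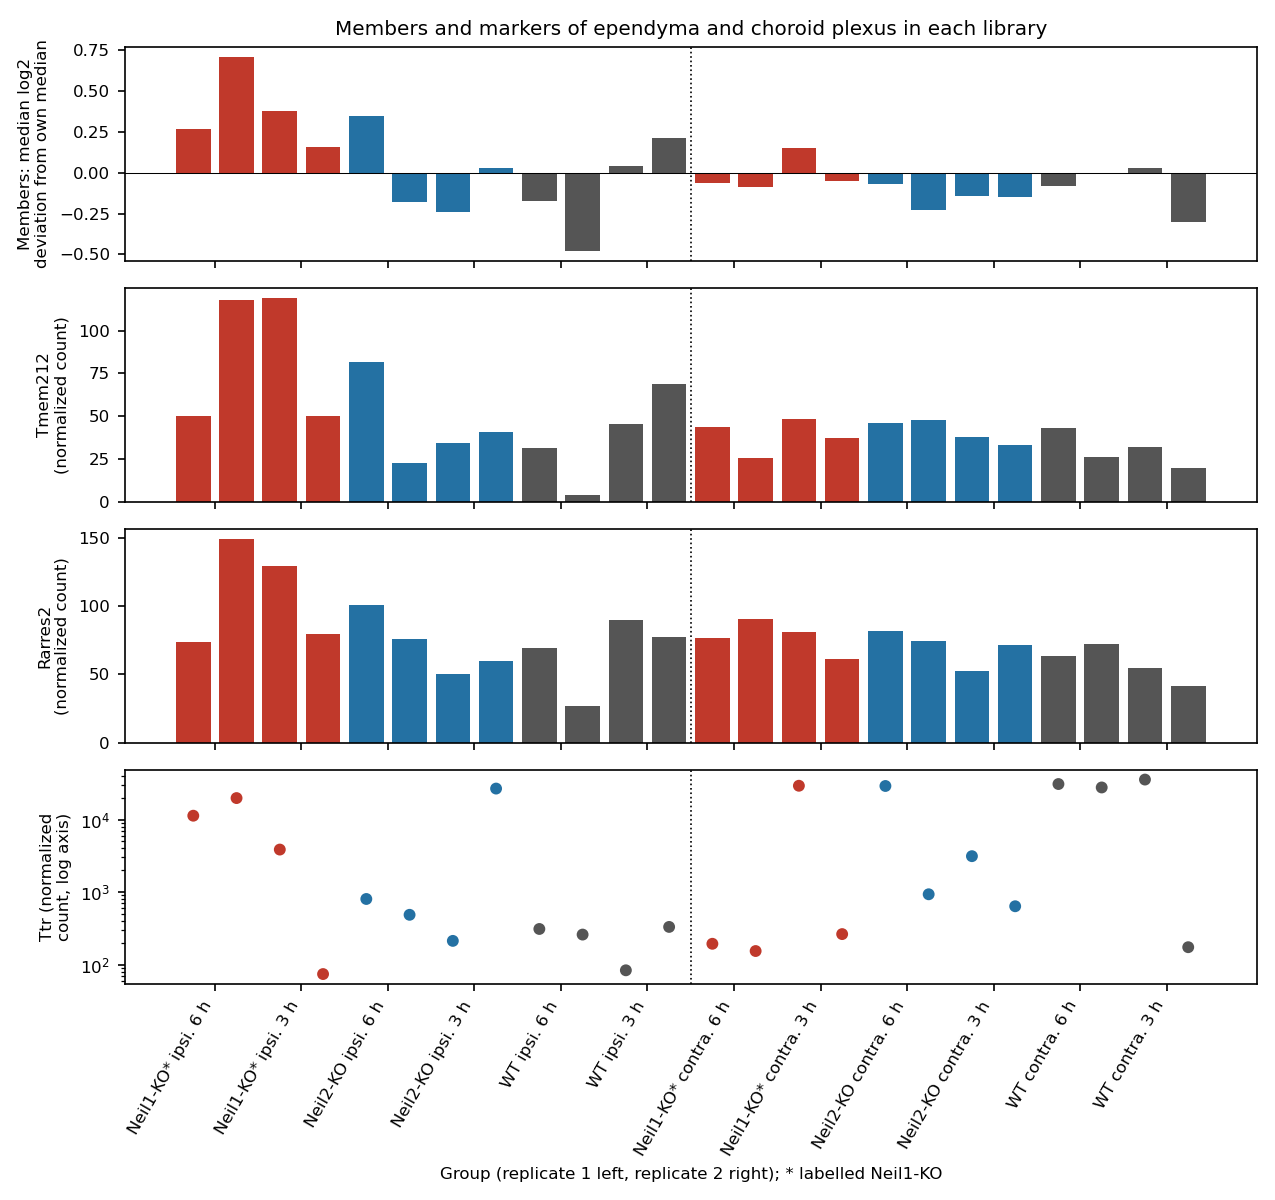
For each library (ipsilateral left of contralateral, replicates side by side; red labelled Neil1-KO, blue Neil2-KO, grey WT), the median deviation of the 62 members from their own medians (log2), and the normalized counts of the ependymal markers Tmem212 and Rarres2 and the choroid plexus marker Ttr (log axis). Tmem212 is at 118 where the members are highest and at 4.11 where they are lowest. Ttr is above 10000 in 8 libraries, where the median member is at -0.08 to 0.71.

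Averaged over genotypes and times, a set of cilium genes rose on the injured side, among them Cfap69, Map3k19, Foxj1 and Dnah10, and Cfap97 and Dnah8 fell. As this mean over 3 genotypes and 2 times, 17 members were higher and 5 lower in the ipsilateral hippocampus at an adjusted p under 0.05 in limma's fit to log2(normalized count + 1). These 22 of 62 (35.5%) compare with 55.4% of all 18364 genes tested, a larger share. The members' median log2 fold change was 0.15, against 0.02 for all genes. The calls numbered 18 to 23 when any 1 library was left out and 20 without both libraries that stood apart.

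Cfap69, a central pair protein needed for sperm flagella and olfactory cilia, was at 186 to 343 normalized counts in the 12 ipsilateral libraries (median 214) and at 105 to 193 in the 12 contralateral ones (median 133). It was higher on the ipsilateral side in all 12 pairs of same-numbered libraries, and 11 ipsilateral libraries lay above every contralateral one. Its log2 fold change was 0.73 ± 0.09 (SE; limma adjusted p = 2.02e-06). Cfap20, an inner junction protein of the doublet, was at 1000 to 1212 ipsilaterally (median 1120) and 824 to 1075 contralaterally (median 921), also higher in 12 of 12 pairs, at 0.25 ± 0.04 (adjusted p = 0.000125). Both calls held in all 35 alternative fits, and the difference of Cfap20 was small.

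Foxj1, the motile cilium transcription factor, was at 211 to 793 normalized counts in the ipsilateral libraries (median 504) and at 220 to 371 in the contralateral ones (median 320). It was higher ipsilaterally in 10 of 12 pairs, with 10 ipsilateral libraries above every contralateral one and 1, Neil2-KO 3 h replicate 1, below all of them. The log2 fold change was 0.63 ± 0.12 (limma adjusted p = 0.000181). It held in every alternative fit, including the one with a term for ependymal markers. In single groups the call was less secure. At 6 h Foxj1 averaged 626 ± 71.4 ipsilaterally against 282 ± 59.6 contralaterally in labelled Neil1-KO (SD, n = 2 each; limma adjusted p = 0.00422), a call lost without labelled Neil1-KO contralateral 6 h replicate 2 (adjusted p = 0.0567). In Neil2-KO it averaged 699 ± 133 against 348 ± 11.8 (n = 2 each; limma adjusted p = 0.0176), a call that was lost without any 1 of 3 of the 4 libraries (Neil2-KO ipsilateral 6 h replicate 1 or either contralateral one). In WT it averaged 422 ± 138 ipsilaterally and 335 ± 26.8 contralaterally and did not pass.

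Map3k19, a protein kinase of the MAP3K family, separated the sides most widely at 6 h. Its normalized counts at 6 h were 272 and 204 in labelled Neil1-KO ipsilateral libraries, 251 and 220 in Neil2-KO ipsilateral libraries and 202 and 154 in WT ipsilateral libraries. On the contralateral side they were 75.4 and 57.3 for labelled Neil1-KO, 85.0 and 57.1 for Neil2-KO and 50.0 and 54.7 in WT. All 6 ipsilateral values lay above all 6 contralateral ones. The log2 fold changes were 1.82 for labelled Neil1-KO, 1.74 for Neil2-KO and 1.73 for WT (SE 0.34 each; limma adjusted p = 0.000407, 0.00117 and 0.00168), and each held in all 16 alternative fits. Even in WT ipsilateral 6 h replicate 2, where Ak7 and Cfap161 were lowest, Map3k19 was above every contralateral 6 h library. At 3 h the sides overlapped, at 82.7 to 172 ipsilaterally and 62.2 to 141 contralaterally.

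Among the dynein heavy chains, Dnah10, of the inner arm, was at 40.2 to 151 in ipsilateral libraries (median 76.3) and 15.9 to 54.7 in contralateral ones (median 41.0), higher in 11 of 12 pairs, at 0.93 ± 0.19 (limma adjusted p = 0.000417). Dnah1, of the inner arm, and Dnah5, of the outer arm of airway and ependymal cilia, rose by less, at 0.44 ± 0.12 (adjusted p = 0.00525) and 0.34 ± 0.10 (adjusted p = 0.00799). Dnah8, an outer arm chain known chiefly from sperm, was lower on the ipsilateral side in 12 of 12 pairs. It was at 15.6 to 36.0 ipsilaterally (median 25.3) and 29.2 to 43.4 contralaterally (median 37.9), at -0.59 ± 0.13 (adjusted p = 0.00108). Cfap97 was at 245 to 440 ipsilaterally (median 320) and 333 to 518 contralaterally (median 416), with 7 ipsilateral libraries below every contralateral one, at -0.31 ± 0.06 (adjusted p = 0.00018). Dnah1 and Dnah8 were named after their values were seen, as were the other members that fell, Cfap300, a dynein assembly protein (-0.26), Rsph4a, a spoke head protein (-0.34), and Cfap20dc (-0.23).

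**Figure D3:**
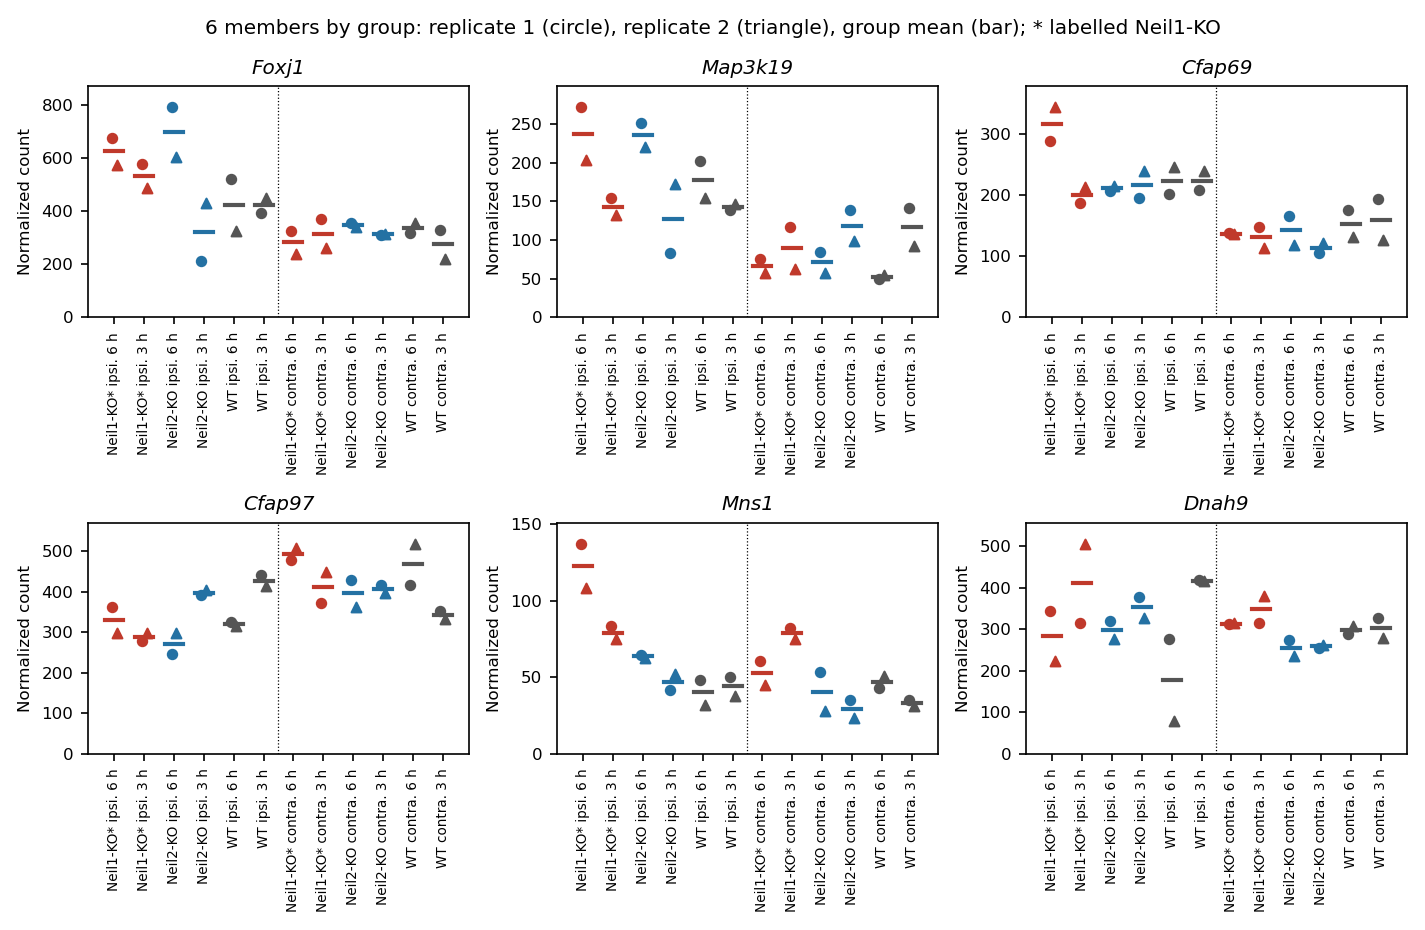
Normalized counts of 6 members in each library by group, ipsilateral left of contralateral, with replicate 1 as a circle, replicate 2 as a triangle (red labelled Neil1-KO, blue Neil2-KO, grey WT) and the group mean as a bar (n = 2). Map3k19 at 6 h is at 154 to 272 ipsilaterally and 50.0 to 85.0 contralaterally, Cfap69 is higher on the ipsilateral side in all genotypes, and Dnah9 in WT ipsilateral 6 h replicate 2 is at 79.8.

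In the same mean over genotypes and times, 55.4% of all genes were called in either direction. By role, the ipsilateral side had 3 higher and 0 lower among the 14 tubule inner and adaptor genes, 2 and 0 among 8 central pair genes, 2 and 0 among 10 inner arm dyneins, and 1 and 1 among 5 outer arm dyneins. It had 2 higher and 1 lower among 5 radial spoke genes, 1 and 0 among 4 tektins, 2 and 2 among 7 broadly expressed Cfap genes, 1 and 1 among 4 other motile cilium Cfap genes, and 3 and 0 among the 5 added names. The tektin was Tekt5, a filament protein of the doublet wall, at 113 to 280 ipsilaterally and 49.6 to 190 contralaterally (log2 fold change 0.59 ± 0.17, limma adjusted p = 0.0057). Its highest value, 280, was in WT ipsilateral 6 h replicate 2. Rsph3a and Rsph3b rose by 0.14 ± 0.04 and 0.12 ± 0.05 (adjusted p = 0.0082 and 0.0397). Of the 50-base windows in their longest transcripts, 74.0% and 75.8% occur in the other gene, so reads may be shared between them. For Dnah7a, Dnah7b and Dnah7c the share was 40.3% to 48.5%, and their separate values are likewise uncertain.

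Taken group by group, more members passed the test between sides at 6 h than at 3 h in each genotype, and so did more of all genes. From 3 h to 6 h the share of all genes called went from 17% to 39% in labelled Neil1-KO. It went from 9.24% to 24.8% in Neil2-KO and from 4.29% to 20.6% in WT. The members' share was below that of all genes each time. Whether genotypes differed in this is given with the comparisons of genotypes. At 3 h, limma called 1 member higher and 1 lower in labelled Neil1-KO (Cfap20 at 0.32 ± 0.11 and Cfap97 at -0.51 ± 0.14), against 17% of all genes. Leaving out any 1 of the 4 libraries lost the call of Cfap20. It called 1 higher in Neil2-KO (Cfap69 at 0.93 ± 0.22, adjusted p = 0.0138), against 9.24% of all genes. That call was lost without Neil2-KO contralateral 3 h replicate 1 or ipsilateral 3 h replicate 2. In WT at 3 h it called 0 of 62, against 4.29% of all genes, with 8 members at an unadjusted p under 0.05, all higher, and 0 called by edgeR or DESeq2. The share of all genes at that unadjusted cut is not given here, so the 8 have no background beside them.

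At 6 h in labelled Neil1-KO, 16 members were higher and 4 lower on the ipsilateral side, which is 32.3% of members against 39% of all genes, with a median log2 fold change of 0.63 against -0.01. In the same comparison 2 of 12 choroid plexus markers were higher (median 3.03), 3 of 5 meningeal markers were higher (median 0.96), 1 of 6 ependymal markers was higher (median 1.07) and 6 of 8 neuron markers were lower. Smallest in adjusted p after Map3k19 were Cfap69 (1.20 ± 0.22, limma adjusted p = 0.00041), Cfap61, a spoke base adaptor (1.28 ± 0.31, adjusted p = 0.00371), Mns1, which also lies inside the tubules (1.21 ± 0.30, adjusted p = 0.00394), and Foxj1 (1.16 ± 0.29). Cfap97 was lower (-0.58 ± 0.14). The count was 5 without labelled Neil1-KO ipsilateral 6 h replicate 2, 27 without replicate 1 of that group, and 10 and 8 without contralateral 6 h replicate 1 and replicate 2. It was 8 with a term for choroid plexus markers and 2 with a term for ependymal markers. The share of all genes called in each of these fits is not given here, so a shift shared with all genes cannot be told apart.

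At 6 h in Neil2-KO, 4 members were higher (Map3k19, Foxj1, Cfap20 and Dnah10) and 1, Cfap97, was lower, 8.06% of members against 24.8% of all genes. The count was 1 without Neil2-KO ipsilateral 6 h replicate 1 and 3 without contralateral 6 h replicate 2. In WT at 6 h, 4 members were higher (Map3k19, Tekt5, Rsph3a and Rsph3b) and 7 lower, 17.7% of members against 20.6% of all genes, with a median of -0.34 against 0.02. There 4 of 12 choroid plexus markers were lower (median -3.53), 1 of 6 ependymal markers was higher and 1 lower (median -1.36) and 4 of 8 neuron markers were lower. The members lower included Cfap97 (-0.54 ± 0.14, limma adjusted p = 0.0131), Cfap206, an adaptor at the spoke base (-1.55 ± 0.47, adjusted p = 0.026), and Cfap65, a central pair protein (-1.23 ± 0.40, adjusted p = 0.0382). Cfap99 was also called, but rested on 1 read in the 2 ipsilateral and 20 reads in the 2 contralateral libraries. The count was 2 without WT ipsilateral 6 h replicate 2, 15 without replicate 1 of that group, and 3 and 2 without contralateral 6 h replicate 1 and replicate 2. Cfap206 and Cfap65 were lost without WT ipsilateral 6 h replicate 2 or without either contralateral library. With a term for ependymal markers 3 members were called. Here too the share of all genes called in each such fit, in Neil2-KO or WT, is not given beside the counts.

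**Figure D4:**
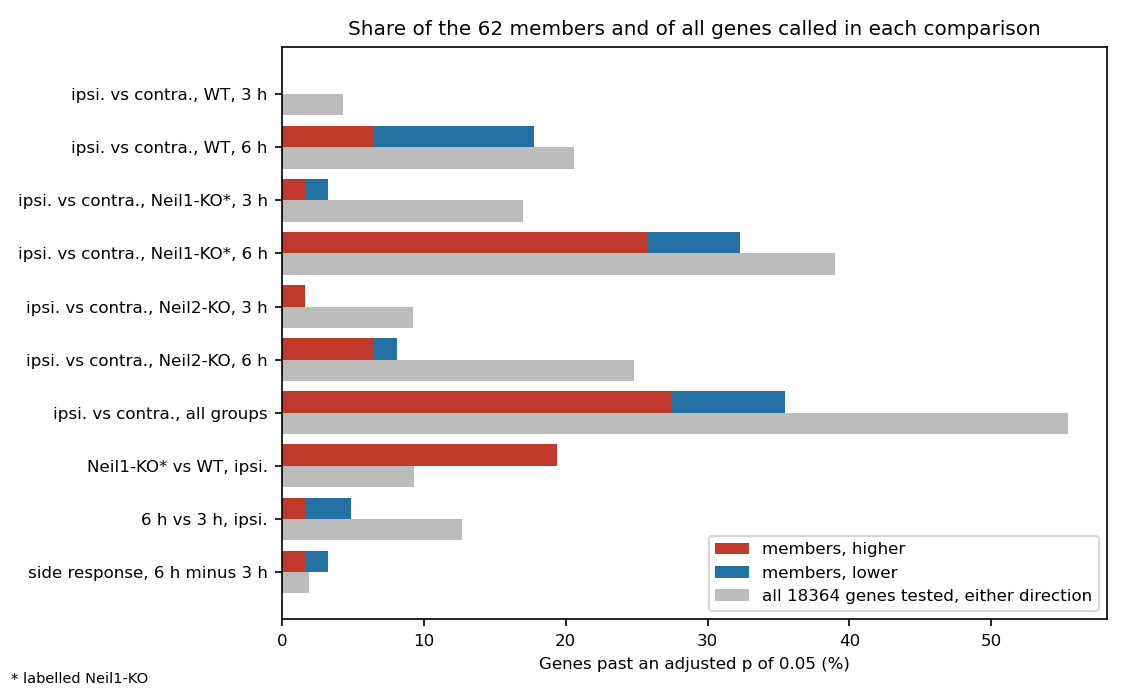
Share of the 62 members called higher (red) and lower (blue) at a limma adjusted p under 0.05, and share of all 18364 genes called in either direction (grey), in each of 10 comparisons. The members' share is below that of all genes in the comparisons of sides, and above it for labelled Neil1-KO against WT on the ipsilateral side (19.4% against 9.31%). For the change of the side response with time only 2 members are called, a share near that of all genes (3.23% against 1.9%).

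Between genotypes, 12 of the 62 members were higher and 0 lower in labelled Neil1-KO than in WT on the injured side, a count that depended on single libraries. As this mean over both times they were 19.4% of members against 9.31% of all genes called in either direction and 1.91% called higher. The median member was at 0.52 (log2) and the median of all genes at -0.02, and 49 of 62 members were above 0. Those called were Mns1, Cfap65, Cfap70, Cfap46, Cfap52, Cfap57, Cfap100, Cfap126, Ccdc114, Ak7, Dnah12 and Dnah3. By role they were 4 of 14 tubule inner and adaptor genes, 3 of 8 central pair genes, 2 of 10 inner arm dyneins and 3 of the 5 added names. Cfap65 was at 137 and 284 (6 h) and 162 and 120 (3 h) in labelled Neil1-KO, and at 49.0 and 32.1 (6 h) and 91.9 and 161 (3 h) in WT (1.24 ± 0.29, limma adjusted p = 0.0157). Its groups were apart at 6 h and overlapped at 3 h. Ccdc114, of the outer arm docking complex, was at 140 and 162 (6 h) and 95.6 and 87.4 (3 h) in labelled Neil1-KO and at 62.3 and 45.3 (6 h) and 72.0 and 69.1 (3 h) in WT, with no overlap (0.93 ± 0.24, adjusted p = 0.0235).

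The count of 12 rested on single libraries. It was 1 without labelled Neil1-KO ipsilateral 6 h replicate 2, without labelled Neil1-KO ipsilateral 3 h replicate 1, without WT ipsilateral 6 h replicate 2 or without WT ipsilateral 3 h replicate 1, and 4 without WT ipsilateral 3 h replicate 2. It was 25 (23 higher and 2 lower) without labelled Neil1-KO ipsilateral 6 h replicate 1. The share of all genes called also moved, between 0.517% without WT ipsilateral 3 h replicate 1 and 28.6% without labelled Neil1-KO ipsilateral 6 h replicate 1. With a term for choroid plexus markers 1 member was called, with a term for ependymal markers 0, and when the fit held only the compared groups 0. The ependymal markers Sntn and Fam216b were themselves called higher in the same comparison (2.05 ± 0.53 and 1.63 ± 0.48). Tmem212 was at 49.9 to 119 in the 4 labelled Neil1-KO ipsilateral libraries and at 4.11 to 69.1 in the 4 WT ones (1.53 ± 0.49, limma adjusted p = 0.0545).

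**Figure D5:**
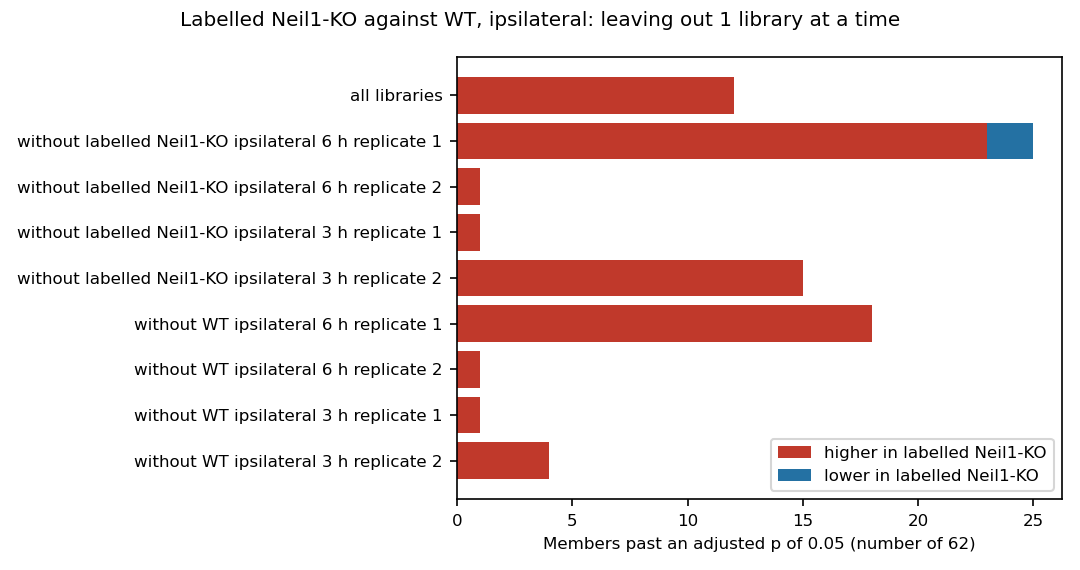
Number of the 62 members called at a limma adjusted p under 0.05 for labelled Neil1-KO against WT on the ipsilateral side, with all libraries and with each of the 8 compared libraries left out in turn. The bars run from 1 to 25, against 12 with all libraries.

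Mns1 was the exception. On the ipsilateral side it was at 137 and 108 (6 h) and 83.4 and 75.1 (3 h) in labelled Neil1-KO, and at 48.1 and 32.1 (6 h) and 50.2 and 38.0 (3 h) in WT, with no overlap. The log2 fold change was 1.23 ± 0.21 (limma adjusted p = 0.0055), and it kept its call when each of the 8 libraries was left out in turn and without both libraries that stood apart (adjusted p = 0.0442). The call was lost with a term for ependymal markers (0.98 ± 0.29, adjusted p = 0.594) and when the fit held only the compared groups (adjusted p = 0.26). On the contralateral side Mns1 was at 60.5 and 45.1 (6 h) and 82.0 and 75.3 (3 h) in labelled Neil1-KO and at 43.3 and 51.0 (6 h) and 35.1 and 31.3 (3 h) in WT, overlapping at 6 h, and it did not pass (0.69 ± 0.21, limma adjusted p = 0.394). In Neil2-KO it was at 64.9 and 62.5 (6 h) and 41.7 and 52.0 (3 h) on the ipsilateral side, between the other genotypes at 6 h. RefSeq places Mns1 on chromosome 9, which also carries Neil1, and whether the position bears on the level was not tested.

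The other comparisons of genotypes called 0 members. For labelled Neil1-KO against WT on the contralateral side, 0.103% of all genes were called, with 6 members at an unadjusted p under 0.05. For Neil2-KO against WT, 0.0817% of all genes were called on the contralateral side, with 7 members at an unadjusted p under 0.05. On the ipsilateral side the share was 0.109%, with 0 such members. edgeR and DESeq2 called 0 in each. The side response (ipsilateral minus contralateral) was then compared between each knockout and WT, as the mean over times and, in comparisons added after the data were seen, at each time. limma called 0% of all genes, and limma, edgeR and DESeq2 called 0 members, in all 6. At 6 h, 26 members had an unadjusted p under 0.05 for labelled Neil1-KO minus WT (25 higher), among them Cfap206 (3.12 ± 0.66, limma adjusted p = 0.128) and Mns1 (1.46 ± 0.42, adjusted p = 0.128), both picked after their values were seen. At an adjusted p under 0.05 the count of 0 became 15 without WT ipsilateral 6 h replicate 1 and 21 without labelled Neil1-KO ipsilateral 6 h replicate 1. The corresponding numbers at an unadjusted p under 0.05 were 13 for Neil2-KO minus WT at 6 h, 3 and 2 for labelled Neil1-KO and Neil2-KO at 3 h, and 13 and 4 as the mean over times. The share of all genes at the unadjusted cut, or with a library left out, is not given beside these counts. They are therefore not read as a result about the members. Thus the opposite medians at 6 h, 0.63 in labelled Neil1-KO and -0.34 in WT, were not shown to differ gene by gene.

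With time, few members changed. On the contralateral side, 6 h against 3 h, 0 members were called by limma and edgeR and 1 by DESeq2, against 0.332% of all genes. At an unadjusted p under 0.05 there were 4 members, and the share of all genes at that cut is not given. On the ipsilateral side 1 member was higher at 6 h (Map3k19, 0.66 ± 0.19, limma adjusted p = 0.0319) and 2 were lower (Dnah9 and Cfap97), 4.84% of members against 12.7% of all genes. Map3k19 was at 154 to 272 normalized counts at 6 h and at 82.7 to 172 at 3 h in the 6 libraries each, and its call was lost without any 1 of 8 of the 12. Dnah9, an outer arm dynein heavy chain of the distal axoneme, was at 79.8 to 343 at 6 h and at 316 to 507 at 3 h (-0.75 ± 0.21, adjusted p = 0.0262). Without WT ipsilateral 6 h replicate 2, where Dnah9 was at 79.8, its difference was -0.45 ± 0.13 (adjusted p = 0.0296), and its call was lost without any 1 of 7 of the 12 ipsilateral libraries. The count of 3 fell to 0 without either WT ipsilateral 3 h library, labelled Neil1-KO ipsilateral 3 h replicate 2, Neil2-KO ipsilateral 3 h replicate 1 or Neil2-KO ipsilateral 6 h replicate 1.

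The side response itself changed between times for 2 members, 3.23% of members against 1.9% of all genes, which is close for so few genes. That of Map3k19 was larger at 6 h than at 3 h by 1.41 ± 0.27 (limma adjusted p = 0.0194). Its contralateral level was also lower at 6 h, at 50.0 to 85.0 against 62.2 to 141 at 3 h. That of Cfap97 was more negative at 6 h by -0.48 ± 0.12 (adjusted p = 0.0401). From 3 h to 6 h it went from 0.32 to -0.54 in WT and from -0.03 to -0.54 in Neil2-KO. In labelled Neil1-KO it was similar at both times, at -0.51 and -0.58. Map3k19 kept the call in 33 of 35 alternative fits and lost it without WT ipsilateral 3 h replicate 1 (adjusted p = 0.0525) and without the animals with high Xist (adjusted p = 0.0927). Cfap97 kept it in 14 of 35, and lost it with the animal as a block (adjusted p = 0.0743) and without any 1 of 17 of the 24 libraries.

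Other genes of the axoneme were also examined. Of 64 listed, such as dynein intermediate chains and docking proteins, 53 were measured. As the mean over all groups, 8 were higher and 2 lower ipsilaterally, against 55.4% of all genes, with a median of 0.12, led by Dnal1, a dynein light chain, which fell (-0.66 ± 0.05, limma adjusted p = 3.92e-09). At 6 h, 6 were higher and 1 lower in labelled Neil1-KO (median 0.53, against 39% of all genes called), and 1 higher and 8 lower in WT (median -0.52, against 20.6%). For labelled Neil1-KO against WT on the ipsilateral side 5 were higher and 1 lower (median 0.64, against 9.31% of all genes called), led by Wdr63, a dynein intermediate chain (2.21 ± 0.44, adjusted p = 0.00938). Of 11 measured regulators of multiciliated cells, 4 were higher and 1 lower ipsilaterally as the mean over all groups, against 55.4% of all genes. Ccno, which acts in centriole amplification, rose by 1.66 ± 0.17 (adjusted p = 2.15e-07), Myb, a transcription factor of the same program that also acts in dividing cells, by 1.03 ± 0.14 (adjusted p = 7.47e-06), and Rfx3, a ciliary gene activator, fell by 0.68 (log2 fold change -0.68 ± 0.06, adjusted p = 2.01e-08). Of 30 genes of intraflagellar transport and the primary cilium, the non-motile cilium of neurons included, 4 were higher and 11 lower, against the same 55.4%, led by Kif3c, a kinesin (-0.65 ± 0.07, adjusted p = 4.21e-07). All 8 hippocampal neuron markers were lower ipsilaterally. Of the choroid plexus markers 0 were higher and 2 lower, of the 6 ependymal markers 1, Tppp3, was higher, and of 5 meningeal markers 2 were higher and 1 lower.

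Promoter sequence was examined for the members as a whole, not only for those that moved together. RefSeq windows (build GRCm38.p6, which is not the build of the counts) were found for 50 of the 62 members. The core of the X-box, the motif bound by RFX factors, was searched as GTTGCC on both strands in the 250 bases before the start. It was found in 17 of the 50 members (34%) and in 11.8% of all 27025 symbols with a window. The forkhead core GTAAACA, searched in the same way, was found in 4 members (8%) and in 3.54% of all symbols. These spellings were settled after several were looked at, and a match is only a description of the letters. The 17 included Cfap20, Dnah10 and Mns1, and also Cfap58 and Tekt1, which passed no comparison, and the near-identical Dnah7a, Dnah7b and Dnah7c. Shown are the 150 bases before the start of Cfap161 and Cfap44, lowest and highest in the libraries that stood apart, and of Dnah10, a dynein called between sides, and Mns1, a gene called between labelled Neil1-KO and WT, 5′ to 3′ on the strand of the gene with the X-box core in capitals.
Cfap161 (chr7:83794840-83794989, minus strand): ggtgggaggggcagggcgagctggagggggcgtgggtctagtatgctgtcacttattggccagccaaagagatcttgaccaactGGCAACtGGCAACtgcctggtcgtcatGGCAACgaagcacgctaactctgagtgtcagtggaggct
Cfap44 (chr16:44394649-44394798, plus strand): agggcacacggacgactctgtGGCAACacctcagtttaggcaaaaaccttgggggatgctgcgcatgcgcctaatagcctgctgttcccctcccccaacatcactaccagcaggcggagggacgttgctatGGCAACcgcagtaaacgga
Dnah10 (chr5:124724935-124725084, plus strand): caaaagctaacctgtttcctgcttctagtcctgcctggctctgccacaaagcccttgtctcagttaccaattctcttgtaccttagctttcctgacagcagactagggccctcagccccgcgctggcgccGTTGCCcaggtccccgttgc
Mns1 (chr9:72438379-72438528, plus strand): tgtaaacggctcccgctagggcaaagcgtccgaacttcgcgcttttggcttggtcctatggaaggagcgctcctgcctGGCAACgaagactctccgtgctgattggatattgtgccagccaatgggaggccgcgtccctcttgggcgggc
The window of Cfap161 holds 3 X-box cores, that of Cfap44 holds 2, and those of Dnah10 and Mns1 hold 1 each.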

How the data were processed

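The authors deposited 1 table of gene values for all 24 libraries, a signal in normalized counts. Trim Galore, HISAT2, SAMtools, featureCounts and DESeq2 are named in the submitters' processing notes with build GRCm39 (mm39), without versions, and strandedness is not given in the sources used here. Dividing each column by its smallest step gave whole reads for 100% of values (tolerance 1e-06), so depth was recovered as 17771293 to 29252067 reads. The unnamed lines, 32.55% of 33084, were left out.

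From the deposited normalized counts, limma 3.58.1 (R 4.3.3) with a trended prior was fitted to log2(value + 1), a scale that understates changes of low genes. It held 12 group means over 18364 genes with a value of at least 10 in at least 2 libraries, and p-values were adjusted by Benjamini-Hochberg over all of them at 0.05. edgeR 4.0.16 and DESeq2 1.42.0 on the recovered reads were alternatives, with TMM scaling, a pseudocount of 5, no filter, only the compared groups, marker terms, a block and libraries left out. The fit reported here had no block. An alternative blocked side comparisons by animal, since the design text takes both sides from the same replicates. Same-numbered sides deviated together with correlations of 0.271 and 0.155 for labelled Neil1-KO, 0.0537 and 0.035 for Neil2-KO and -0.0058 and -0.0033 for WT. Nothing says that the 2 replicates came from separate litters, and p-values measure only the spread between these samples.

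The members and lists were chosen with earlier results of these data known. Named genes were mainly the 3 members of each role with the highest mean, and up to 6 past the threshold with the smallest adjusted p in each comparison. Others, Cfap161, Dnah3 and Rsph1 among them, met neither rule and were picked after their values were seen. The ependymal marker term, the removal of both libraries that stood apart and 4 of the 20 comparisons were added after the data were seen. Ranges and read counts carry counting error only from the reads, which have no molecular identifiers. The fits were tested on simulated counts with the same dispersion for every gene, which does not match members that vary widely between libraries.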

Additional observations from a re-analysis of the deposited data

Results flagged for a closer look

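The side response (ipsilateral minus contralateral) of Map3k19 differed between times, being larger at 6 h than at 3 h by 1.41 ± 0.27 on the log2 scale (limma adjusted p = 0.0194). That of Cfap97 was more negative at 6 h than at 3 h by -0.48 ± 0.12 (limma adjusted p = 0.0401). Both are differences tested as an interaction over 24 libraries. From 3 h to 6 h the side response of Cfap97 went from 0.32 to -0.54 in WT and from -0.03 to -0.54 in Neil2-KO. In labelled Neil1-KO it was -0.51 and -0.58.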

How the results depend on the processing

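Of 1776 alternative values for 78 single gene results, 1272 kept direction and call, 502 kept direction only and 2 reversed: for labelled Neil1-KO against WT on the ipsilateral side with a term for ependymal markers, Ak7 became -0.03 and Dnah3 -0.08. The causes were not tested. Counts of members called that moved by over 1.5 times are given next. In the side comparisons of labelled Neil1-KO (3 h, then 6 h) and WT (3 h, then 6 h), only the compared groups gave 0, 10, 1 and 3. The choroid plexus term gave 6, 8, 4 and 4. Leaving out both libraries that stood apart gave 6, 6, 2 and 4. The ependymal term gave 1 and 2 in labelled Neil1-KO, 3 in WT at 6 h and 2 in Neil2-KO at 3 h. The replicate block by animal gave 1 in WT and 1 in labelled Neil1-KO at 3 h and 1 for the side response between times, and changed no other count by that much. Leaving out labelled Neil1-KO ipsilateral 6 h replicate 2 gave 2 in WT at 3 h and 5 in labelled Neil1-KO at 6 h. Without animals with high Xist the counts were 1 in WT at 3 h, 1 and 3 in labelled Neil1-KO at 3 h and 6 h, and 2 and 3 in Neil2-KO. For labelled Neil1-KO against WT, ipsilateral, 12 became 0 with only the compared groups, 1 with the choroid plexus term, 0 with the ependymal term, 3 without high Xist, and 1 without 1 or both libraries that stood apart. The block by replicate number, which does not pair these samples, gave 11. For 6 h against 3 h, ipsilateral, 3 became 0 with only the compared groups, 0 without high Xist, 1 without the labelled Neil1-KO library and 5 with DESeq2. Contralateral, 0 became 1 with either marker term and with DESeq2. For the side response between times, 2 became 0 without high Xist and 1 without 1 or both libraries. In labelled Neil1-KO at 3 h DESeq2 gave 4 and no filter 1. Leaving out 1 of the compared libraries gave 0 to 1 in WT at 3 h, 2 to 15 in WT at 6 h, 0 to 2 and 5 to 27 in labelled Neil1-KO, 0 to 2 and 1 to 7 in Neil2-KO and 18 to 23 over all groups. It gave 1 to 25 for labelled Neil1-KO against WT and 0 to 2 for Neil2-KO against WT, ipsilateral, and 0 to 4 and 0 to 3 for 6 h against 3 h, ipsilateral, and the side response between times. For side responses of labelled Neil1-KO minus WT it gave 0 to 4 as the mean and 0 to 21 at 6 h, and for Neil2-KO minus WT at 6 h 0 to 3. With 1 library left in a group, that library was assumed to vary like the others. The share of all genes called under these settings is not given beside the counts, so a shift shared with all genes cannot be told apart.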
